A study of Mus musculus with 3 samples.

Results

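The cells described here are early erythroid-megakaryocyte progenitors of mouse bone marrow, the stage at which Gata1 and Gata2 are expressed together. They were chosen by raw counts of unique molecular identifiers (UMIs, 1 per captured transcript) among cells that had 1000 UMIs or more from 400 genes or more, with mitochondrial UMIs at 10% or less. A member had at least 1 UMI each of Gata1, Gata2 and Kit, at most 4 of Car1, at most 2 of Pf4, and at most 2 of Mcpt8, Prss34 and Ms4a2 summed. The rule found 375 of 22376 kept cells: 140 and 160 in the 2 fusion libraries (fusion 1 and fusion 2) and 75 in the wild-type library.

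Both fusion libraries carried the genotype Ep300-Znf384-V5-HA, which joins the histone acetyltransferase gene Ep300 to the zinc finger gene Znf384 with the V5 and HA tags. The remaining library was wild type. All 3 came from bone marrow of males aged 6 weeks, and each pooled 5000 live marrow cells with 5000 lineage-negative live cells, sorted after red cell lysis and run on droplet 3′ sequencing. By its title the study asks how ZNF384 fusion proteins disturb blood lineages. The sources used here do not state how the fusion allele is switched on, nor whether each library is 1 animal.

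GATA2 is active in stem and early progenitor cells, and GATA1 takes over from it at many of the same sites as cells commit to the erythroid or megakaryocytic lineage. KIT, the receptor for stem cell factor, sustains these progenitors. Car1 (carbonic anhydrase 1) marks erythroid commitment, Pf4 (platelet factor 4) megakaryocytes, and Mcpt8, Prss34 and Ms4a2 basophils and mast cells, which also use GATA2.

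The members held 1759164 and 2476122 UMIs in fusion 1 and fusion 2, against 1174375 in wild type, with medians of 10630 and 13582.5 UMIs per cell against 12986. Scrublet, which predicts doublets (droplets with more than 1 cell), marked 13 of 140 and 11 of 160 fusion members, against 4 of 75 wild-type members, and these were kept in the main comparison. Between libraries, 13 to 17 kept barcodes were shared, and 0 members shared a barcode with a member of another library. Members that shared one with any kept cell numbered 3 between fusion 1 and fusion 2. The number was 0 between fusion 1 and wild type and 1 between fusion 2 and wild type. The 80, 68 and 145 T cells in fusion 1, fusion 2 and wild type, used as background, were gated with 0 Kit UMIs. They could therefore not be members.

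Genes of early progenitors led these cells. Relative to all other kept cells, the genes highest in all 3 libraries began with Ctla2a, Mc5r, Mycn, Slc22a3, Angpt1, Meis1 and Muc13. Apoe, which codes for the lipid carrier apolipoprotein E, was the tenth. These orders describe the gated cells and carry no test. Not every listed marker of this stage was above the other kept cells. The log2 ratio of members over other cells was −0.34 and −0.46 in fusion against 0.90 in wild type for Gfi1b. For Car2 it was −0.84 and −0.51 against 0.56, and for Cd34 0.52 and 0.51 against −0.55. The rest of the stage list was above the other cells in all 3 libraries. Ctla2a stood at 377 and 234 CPM (counts scaled to the library total) in fusion members, against 313 CPM in wild-type members. Meis1, a homeobox factor of stem and progenitor cells, stood at 195 and 136 CPM against 106 CPM.

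Markers of neighbouring lineages ranged from undetected to common. Fcer1a, which codes for the IgE receptor alpha chain, had 0 UMIs in all 375 members, and so had the macrophage genes C1qa, C1qb and C1qc. In the other kept cells Fcer1a stood at 0.957 and 1.60 CPM in fusion and 33.7 CPM in wild type. The 3 macrophage genes stood there at 0.269 to 1.09 CPM, so 0 UMIs says little. Gzmb of the basophil and mast cell list stood at 16.5 and 7.27 CPM in fusion members against 26.4 CPM in wild-type members. In the other kept cells it stood at 3.35 and 3.59 CPM against 8.56 CPM. Cpa3, another basophil and mast cell marker, stood at 132 and 119 CPM in fusion members, against 106 CPM in wild-type members. In the other kept cells it stood at 54.1 and 58.5 CPM in fusion and 133 CPM in wild type. Members with 3 or more Cpa3 UMIs numbered 18 of 140 and 23 of 160 in fusion, against 9 of 75 in wild type. Their Mpo stood at 1236 and 1708 CPM in fusion, against 1723 CPM in wild type. The neutrophil markers summed to 4415 and 8006 CPM in fusion members, against 3028 CPM in wild-type members. The 5 macrophage markers summed to 0 and 3.23 CPM in fusion members, against 1.70 CPM in wild-type members. Mpo, an enzyme of granulocyte precursors, had a UMI in 33.6% and 31.9% of fusion members, against 50.7% of wild-type members. It also had one in 11.2% and 16.2% of fusion T cells and 42.8% of wild-type T cells, which should lack it and had medians of 2840.5, 4394 and 4979 UMIs. The erythroid factor Klf1 had a UMI in 84 of 140 and 89 of 160 fusion members against 43 of 75 wild-type members, and in 1.25% and 5.88% of fusion T cells against 2.07% of wild-type T cells.

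Of the genes that set the gate, given as a description, Gata1 had a median of 1 and 2 UMIs per fusion member and 2 per wild-type member. For Gata2 the medians were 4 and 3 UMIs against 5, and for Kit 2 and 3 against 3. Car1 was at 0 in 67 of 140 and 63 of 160 fusion members, against 28 of 75 wild-type members. At the lower edge of the gate 81, 78 and 34 members of fusion 1, fusion 2 and wild type had exactly 1 Gata1 UMI, while 317, 298 and 262 cells met every other limit with 0 Gata1 UMIs. At the upper edge for Car1, 12, 21 and 8 members had 4 UMIs, and 7, 12 and 8 cells meeting the other limits had 5. Cells lay on both sides of each limit.

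Early progenitors took a larger share of the fusion libraries. They made up 1.86% and 2.22% of kept cells in fusion 1 and fusion 2 (2.04% ± 0.255, SD, n = 2), against 0.984% in wild type. The 95% intervals (exact Clopper-Pearson, for counting error alone) were 1.56 to 2.19% and 1.89 to 2.58% against 0.774 to 1.23%, so both fusion intervals lay above the wild-type one. The fusion to wild type ratio was 2.07. A two-sided exact permutation test gave p = 0.333, the smallest that 3 libraries allow. With at least 2 UMIs each of Gata1 and Gata2 the ratio was 1.75. In the other kept cells Gata1 stood at 68.3 and 71.2 CPM in fusion against 37.8 CPM in wild type. The part of free Gata1 RNA in the shares was not tested.

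The size of the difference depended on what the cells were counted among. Among Kit-positive cells outside the committed erythroid gate, early progenitors made up 9.64% and 9.59% in fusion and 3.89% in wild type, a ratio of 2.47. Kit+ committed erythroid cells, gated by at least 5 Car1 UMIs with Kit, Gata1 and Klf1, also took a larger share, at 18.7% and 19.8% of fusion cells and 8.59% of wild-type cells. Among early and committed cells combined, early progenitors made up 9.03% and 10.1% in fusion against 10.3% in wild type, with intervals that overlapped, and the ratio of 0.929 was below 1 (exact permutation p = 0.667). The 2 denominators that set early cells against committed ones were added after the shares had been seen. Because shares of a sorted mixture sum to 1, more early cells and fewer of the other cells cannot be told apart.

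**Figure D1:**
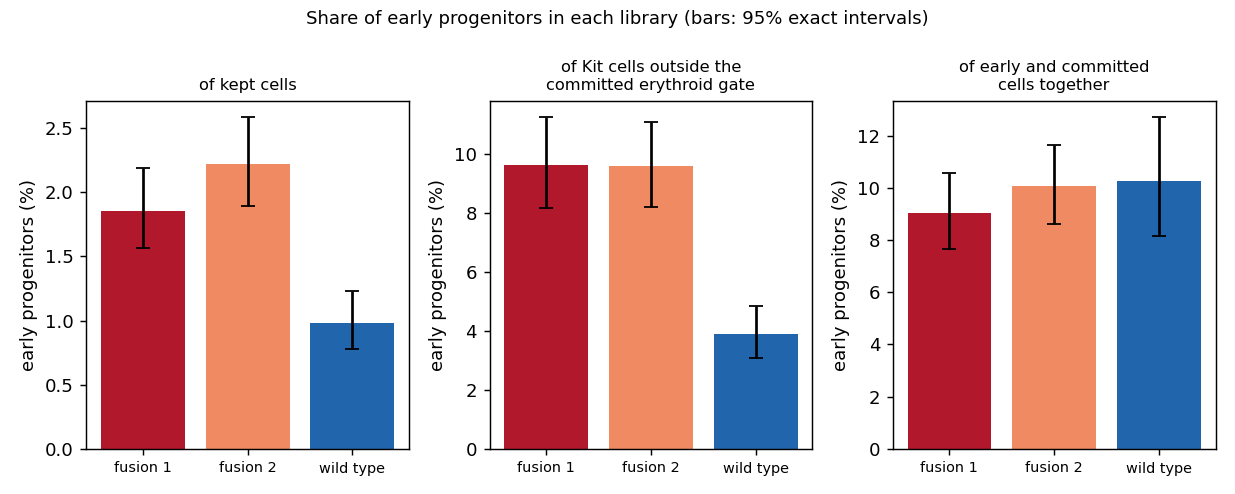
Early progenitors in percent of 3 denominators (y axes) for fusion 1, fusion 2 and wild type (x axes), with exact 95% intervals for counting error. The fusion bars are at 1.86% and 2.22% against 0.984% of kept cells and at 9.64% and 9.59% against 3.89% of Kit cells outside the committed gate, and all 3 intervals overlap among early and committed cells together.

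Within the early progenitors, few genes differed between fusion and wild type. Counts were summed per library and tested with edgeR's quasi-likelihood test, and CPM values from here on are on TMM-scaled library sizes unless called plain CPM. With Benjamini-Hochberg adjusted p under 0.05, 35 of 9753 genes tested were called (0.359%), 12 higher (0.123%) and 23 lower (0.236%) in fusion, and 697 had an unadjusted p under 0.05. Within a gene only the difference between the fusion libraries informed the spread, with 1 residual degree of freedom. edgeR moderated this spread with that of all genes tested, and the same spread was taken for wild type. Genotype therefore cannot be told apart from the single wild-type library, and the p-values measure a spread between libraries that may be technical.

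The called genes differed in how their UMIs were spread over members. Genes carried by a few cells were prominent among the higher genes. In 8 of the 12 higher genes at least 50% of the UMIs of a fusion library came from 5 cells, and these 8 (Ltf, Camp, Chil3, Ngp, Mmp8, Lcn2, Cybb and Pglyrp1) are genes of neutrophil granules or phagocytes. Of the lower genes, 9 of 23 had at least 50% of the wild-type UMIs in 5 cells. Among these were Dntt, Cd74 and Retnlg, and also Mt2, Fosb, Ifi27l2a and Nfia, which kept their call in both fits that follow. When the doublets were left out, 22 genes were higher (0.233%) and 68 lower (0.719%) of 9457 tested, 0.952% in all. When members with at least 10 UMIs of another lineage's markers were left out, 16 were higher (0.168%) and 56 lower (0.587%) of 9540 tested, 0.755% in all. Of the 35 genes, 24 were called in all 3 fits, 4 higher and 20 lower, and the account below leads with those. A stricter cell filter (at least 2000 UMIs, at most 5% mitochondrial) left 132 and 157 fusion members and 74 wild-type members and called only 3 genes, Mt2, Mmp8 and Camp, and DESeq2's Wald test called 4.

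**Figure D2:**
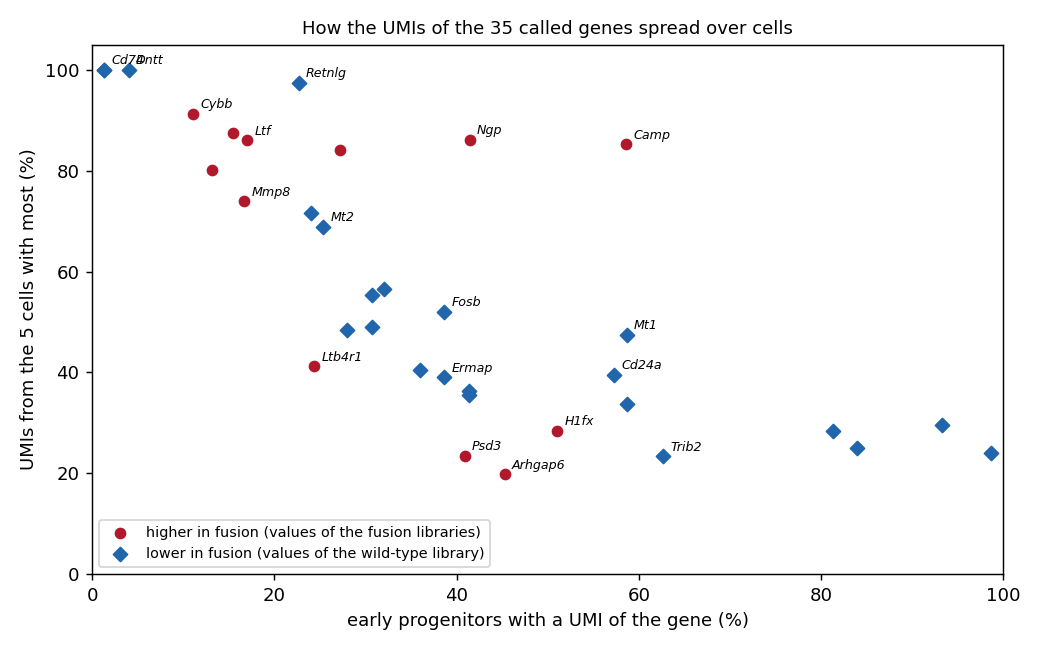
Each point is 1 of the 35 called genes, with the percent of early progenitors that had a UMI of it on the x axis and the percent of its UMIs that came from the 5 cells with most on the y axis. Higher genes (circles, mean share and highest top-5 percent of the fusion libraries) such as Camp and Ngp lie near 85%, Psd3, Arhgap6 and H1fx lie under 30%, and Dntt and Cd74 (diamonds, wild-type library) lie at 100%.

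The metallothionein genes Mt1 and Mt2 fell together. Metallothioneins are small proteins that bind zinc and copper, and the zinc-sensing factor MTF1 activates their genes through metal response elements. Mt2 (ENSMUSG00000031762, chromosome 8, 94172664 to 94173568) stood at 14.1 and 27.1 CPM in the fusion libraries, against 116 CPM in wild type, and had a UMI in 6.43% and 10.0% of fusion members against 25.3% of wild-type members. Its log2 fold change was −2.44 ± 0.26 (SE, edgeR adjusted p = 1.6e-05), and it was called in 13 of the 13 alternatives that tested it. Mt1 (ENSMUSG00000031765, chromosome 8, 94179082 to 94180327) stood at 89.6 and 202 CPM against 443 CPM, a log2 fold change of −1.59 ± 0.28 (edgeR adjusted p = 0.00707). For both genes fusion 1 was lowest and fusion 2 lay between it and wild type. The UMIs were unevenly spread: 68.9% of the Mt2 UMIs and 47.5% of the Mt1 UMIs of wild type came from 5 cells. The size depended on the library: without fusion 1 the Mt1 change was −1.14, and without fusion 2 it was −2.30.

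The promoters of Mt1 and Mt2 are shown because these neighbouring genes moved together and carry the same motif. The windows run from 250 bases before to 50 after the start in RefSeq's annotation of GRCm38.p6, on the plus strand. Capitals mark matches to TGCACNC or TGCGCNC, the core of the metal response element, on either strand.
Mt1, chr8:94178839-94179138: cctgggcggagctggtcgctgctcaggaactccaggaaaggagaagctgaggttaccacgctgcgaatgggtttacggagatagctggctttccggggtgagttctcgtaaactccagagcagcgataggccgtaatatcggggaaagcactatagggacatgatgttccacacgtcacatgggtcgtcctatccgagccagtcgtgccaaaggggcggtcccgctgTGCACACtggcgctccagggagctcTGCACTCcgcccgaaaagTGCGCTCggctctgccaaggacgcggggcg
Mt2, chr8:94172368-94172667: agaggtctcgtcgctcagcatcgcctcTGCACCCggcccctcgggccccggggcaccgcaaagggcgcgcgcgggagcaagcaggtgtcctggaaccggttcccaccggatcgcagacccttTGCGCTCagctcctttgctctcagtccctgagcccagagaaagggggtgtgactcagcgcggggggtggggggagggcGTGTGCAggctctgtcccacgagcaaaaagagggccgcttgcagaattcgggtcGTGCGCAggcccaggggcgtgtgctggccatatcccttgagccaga
The Mt1 window held 3 matches and the Mt2 window 4, while 25.6% of all 27025 promoters held at least 1 and 0.503% at least 4. A match is a string of letters in this window and not a measured site.

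The other tested members of the metallothionein and zinc list did not pass the test. Of its 6 tested genes, 0 were higher and 2 lower, with a median log2 change of −0.59 beside 0.00 over all genes. The zinc importer gene Slc39a10 stood at 21.2 and 24.2 CPM in fusion against 21.04 CPM in wild type. In T cells of the same libraries Mt1 was at 20.1 and 32.9 plain CPM in fusion, against 26.4 plain CPM in wild type, far below the members.

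Cd24a, Trib2 and Ermap, genes of the erythroid commitment list, fell. Of 28 tested genes of this list, 0 were higher and 3 lower, and the median log2 change was −0.54 beside 0.00 over all genes. In 22 of the 28 both fusion libraries lay below wild type, which held for 36.3% of all genes tested. Cd24a (ENSMUSG00000047139, chromosome 10, 43578284 to 43584265), a surface antigen of immature red cells and B cells, stood at 50.5 and 73.5 CPM in fusion against 206 CPM in wild type. Its log2 fold change was −1.72 ± 0.21 (edgeR adjusted p = 9.93e-05), and it was called in 12 of 14 alternatives. A UMI was seen in 34.3% and 37.5% of fusion members, against 57.3% of wild-type members. T cells of the same libraries had 117 and 58.1 plain CPM of Cd24a in fusion, against 131 plain CPM in wild type, and the part of free RNA in the difference was not tested.

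Trib2, a pseudokinase gene, stood at 41.8 and 54.3 CPM in fusion, against 109 CPM in the wild-type library, a change of −1.17 ± 0.21 (edgeR adjusted p = 0.00707), with a UMI in 32.9% and 40.0% of members against 62.7%. Ermap, a membrane protein gene of the erythroid lineage, stood at 85.3 and 96.8 CPM against 193 CPM (−1.08 ± 0.20, edgeR adjusted p = 0.00894). In both genes the fusion libraries were close to each other and below wild type. Without the doublets, Rhd, which codes for the Rh blood group protein (−0.89, edgeR adjusted p = 0.0424), and Add2, which codes for a subunit of the red cell membrane skeleton (−1.73, adjusted p = 0.0149), were called lower as well. Klf1 (119 and 109 CPM against 146 CPM), Epor, the erythropoietin receptor gene (22.3 and 33.0 CPM against 35.9 CPM), and Tfrc, the transferrin receptor gene (70.1 and 65.1 CPM against 114 CPM), did not pass the test.

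**Figure D3:**
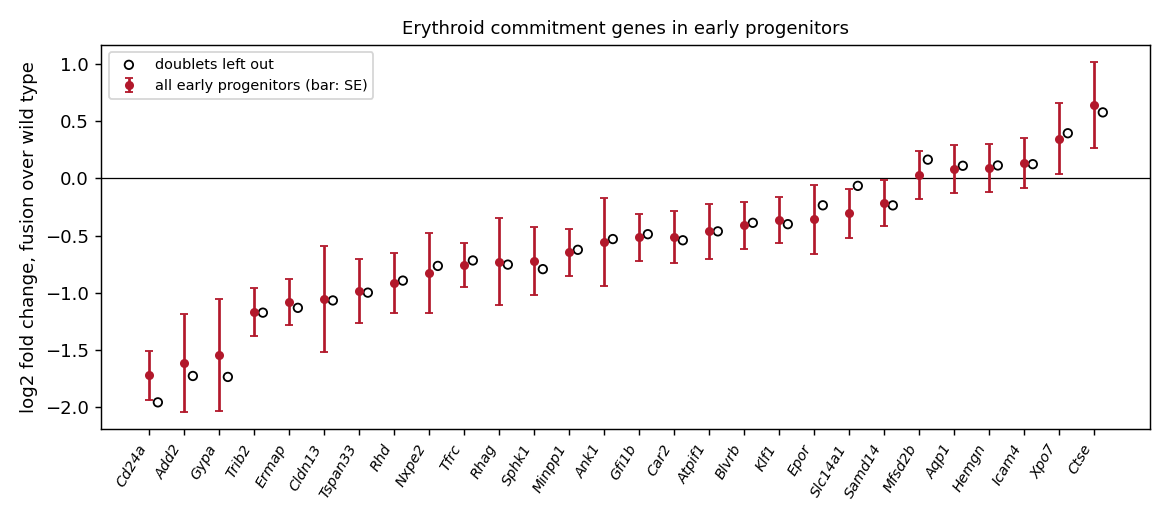
Log2 fold change, fusion over wild type (y axis), of the 28 tested erythroid commitment genes (x axis), with SE bars, and open circles for the same change without doublets. The change was negative for 22 genes in which both fusion libraries lay below wild type, led by Cd24a at −1.72, and the circles stay near the points.

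Fusion values of these genes lay below wild type whether or not Car1 was detected, which is given with no test. Among members with 0 Car1 UMIs, Ermap stood at 36.5 and 71.0 plain CPM in fusion against 186 plain CPM in wild type. Among members with 1 to 4 Car1 UMIs it stood at 127 and 109 plain CPM against 189 plain CPM. For Trib2 the values were 24.3 and 41.6 plain CPM against 72.4 plain CPM at 0 Car1 UMIs, and 57.9 and 59.7 plain CPM against 134 plain CPM at 1 to 4. Cd24a, Mt1, Mt2 and Fosb were also below wild type in both fusion libraries at either level. The share of members with a Car1 UMI was 52.1% and 60.6% in fusion and 62.7% in wild type. Car1 also had a UMI in 24 of 80 and 16 of 68 fusion T cells, against 28 of 145 wild-type T cells. These T cells had medians of 2840.5, 4394 and 4979 UMIs in fusion 1, fusion 2 and wild type. The part of free Car1 RNA in this split of members was not tested.

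The listed transcription factor genes of the lineage did not pass the test. Of 23 tested erythro-megakaryocytic transcription factor genes other than the gate genes, 0 were called, with a median log2 change of −0.01. Gfi1b, a repressor needed in red cells and platelets, stood at 58.1 and 57.2 CPM in fusion against 82.4 CPM in wild type (−0.52 ± 0.21, edgeR adjusted p = 0.571). Nfe2, a factor of late megakaryocytes and globin genes, stood at 159 and 126 CPM against 89.4 CPM (0.67 ± 0.23, edgeR adjusted p = 0.397). Of 12 tested heme synthesis genes 0 were called; Cpox, which codes for coproporphyrinogen oxidase, came nearest at 80.9 and 73.9 CPM against 143 CPM (−0.89 ± 0.20, edgeR adjusted p = 0.0505), and it was called lower without doublets (adjusted p = 0.002).

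Psd3, Arhgap6, H1fx and Ltb4r1 were the genes called higher in all 3 fits. Psd3 (ENSMUSG00000030465, chromosome 8, 67689082 to 68212027), which codes for an exchange factor for the small GTPase ARF6, stood at 55.4 and 48.0 CPM in fusion against 18.4 CPM in wild type. Its log2 fold change was 1.48 ± 0.30 (edgeR adjusted p = 0.0201), and a UMI was seen in 39.3% and 42.5% of fusion members against 22.7% of wild-type members. Arhgap6 (ENSMUSG00000031355, chromosome X, 168795099 to 169304435), a gene for a GTPase-activating protein, stood at 57.6 and 49.25 CPM against 20.2 CPM (1.40 ± 0.29, edgeR adjusted p = 0.0287), with a UMI in 44.3% and 46.25% of members against 21.3%. H1fx (ENSMUSG00000044927, chromosome 6, 87980421 to 87981637), a linker histone gene, stood at 118 and 101 CPM against 50.8 CPM (1.10 ± 0.23, edgeR adjusted p = 0.0298). The UMIs of these 3 genes were spread thinly, with at most 19 in any fusion member. Of 14 alternatives, 8 called Psd3, 6 Arhgap6 and 8 H1fx. Psd3 was at 0.72 with cells thinned to 5000 UMIs before the gate, and Arhgap6 at 0.50 with at least 2 UMIs each of Gata1 and Gata2 (edgeR adjusted p = 0.972 and 0.952).

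Ltb4r1 (ENSMUSG00000046908, chromosome 14, 55765962 to 55768494), the leukotriene B4 receptor gene of phagocytes, stood at 28.2 and 33.4 CPM in fusion against 6.14 CPM in wild type (2.32 ± 0.45, edgeR adjusted p = 0.0137). A UMI was seen in 35 of 140 and 38 of 160 fusion members, against 7 of 75 wild-type members. It was called in 7 of 14 alternatives, and with thinned cells its change was 0.39 (edgeR adjusted p = 0.972). T cells also held it, at 101 and 22.75 plain CPM in fusion and 52.8 plain CPM in wild type, and the part of free RNA was not tested.

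**Figure D4:**
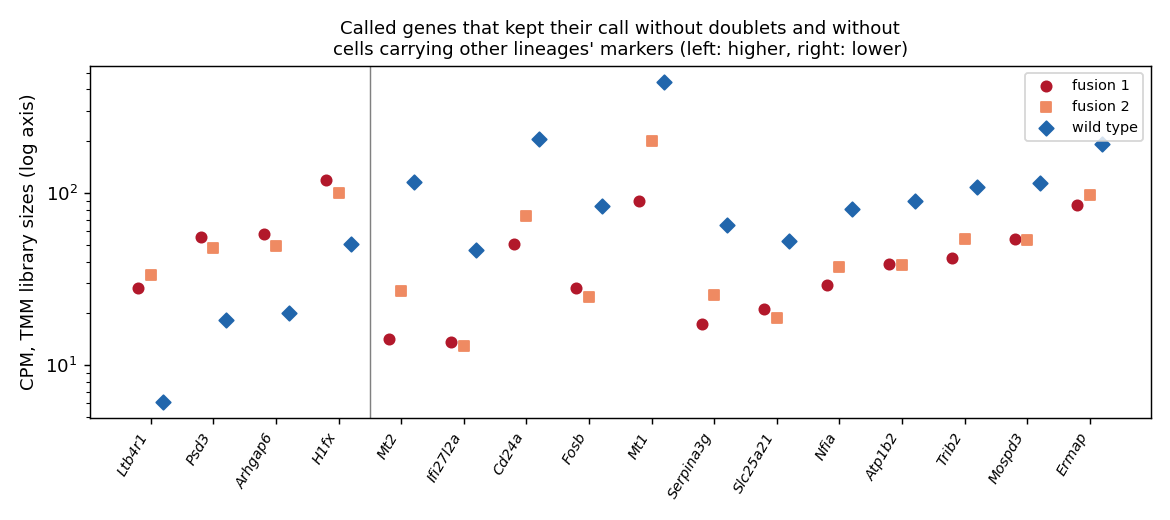
CPM on TMM library sizes (log y axis) in fusion 1, fusion 2 and wild type for 16 of the 24 genes called in all 3 fits (x axis); Dntt, Ces2g, predicted, histone cluster and mitochondrial genes and 1 gene not reported here are left out. The 4 genes on the left are higher and the 12 on the right lower in fusion, and in each gene both fusion points lie above or both lie below the wild-type point.

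Other lower genes belonged to several pathways. Fosb, an AP-1 factor induced within minutes of stimulation, stood at 28.2 and 25.04 CPM in fusion against 84.2 CPM in wild type (−1.66 ± 0.23, edgeR adjusted p = 0.000396), with a UMI in 15.7% and 9.38% of members against 38.7%. It was the 1 gene of 20 tested immediate early genes that was called, and the list's median was −0.25. Fos stood at 125 and 57.2 CPM against 191 CPM and did not pass the test (adjusted p = 0.136), but was called lower without doublets (−1.08, edgeR adjusted p = 0.000155). Fosb in T cells was at 77.1 and 119 plain CPM in fusion against 182 plain CPM in wild type, the same direction.

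Ifi27l2a, an interferon-induced gene, stood at 13.6 and 12.9 CPM in fusion against 46.5 CPM in wild type (−1.81 ± 0.31, edgeR adjusted p = 0.00622). Of 15 tested interferon response genes 0 were higher and only Ifi27l2a was lower; in 12 of the 15 both fusion libraries lay below wild type, beside 36.3% of all genes, and the median was −0.69. Ifi27l2a was higher in T cells, at 191 and 374 plain CPM in fusion and 300 plain CPM in wild type.

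Serpina3g, a protease inhibitor gene, stood at 17.4 and 25.5 CPM in fusion against 64.9 CPM in wild type (−1.57 ± 0.27, edgeR adjusted p = 0.00551). Slc25a21, a mitochondrial carrier gene, stood at 21.2 and 18.8 CPM against 52.6 CPM (−1.40 ± 0.27, adjusted p = 0.0143). Nfia, a transcription factor gene that favours the erythroid over the granulocytic fate, stood at 29.3 and 37.1 CPM against 80.7 CPM (−1.26 ± 0.23, adjusted p = 0.00707). Atp1b2, a sodium pump subunit gene, stood at 38.6 and 38.4 CPM against 89.4 CPM (−1.22 ± 0.21, adjusted p = 0.00622). The fusion values of each gene were close together and below wild type.

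The listed cell cycle genes did not pass the test. Of 33 tested G2 and M phase genes 0 passed edgeR, while both fusion libraries lay below wild type in 25 of them, beside 36.3% of all genes tested, and the median was −0.24. Of 30 tested S phase genes 0 passed and the median was 0.14. Ccnd2, the cyclin D2 gene, stood at 366 and 363 CPM in fusion against 241 CPM in wild type (0.60 ± 0.22, edgeR adjusted p = 0.485). Outside these lists, the replication-dependent histone genes Hist1h2ap and Hist1h3c, which are expressed in S phase, fell. Hist1h2ap stood at 264 and 310.5 CPM in fusion against 624 CPM in wild type (−1.12 ± 0.21, edgeR adjusted p = 0.00894), and Hist1h3c at 69.0 and 82.6 CPM against 160.4 CPM (−1.08 ± 0.20, adjusted p = 0.00894). These genes have near-identical copies, so the assignment of their reads is uncertain, and the Hist1h3c change was 0.071 with thinned cells.

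The listed megakaryocytic genes did not pass the test among all members. Of 17 tested genes 0 were called, 10 had both fusion libraries above wild type (36.3% of all genes did), and the median was 0.37. Nrgn, which codes for the calmodulin-binding protein neurogranin, stood at 297 and 237 CPM in fusion against 137 CPM in wild type (0.96 ± 0.23, edgeR adjusted p = 0.0784). Without doublets it was called higher (1.09, edgeR adjusted p = 0.00197). Itga2b, which codes for the platelet integrin CD41, stood at 88.0 and 76.8 CPM against 51.7 CPM (0.67 ± 0.22, adjusted p = 0.38). Nkg7, a granule membrane protein gene, was not called among all members but in 7 of 14 alternatives, and stood at 402 and 332 CPM in fusion against 185 CPM in wild type (0.99 ± 0.23, adjusted p = 0.0666 among all members and 0.00778 without doublets).

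Neutrophil granule genes had the largest fold changes among the genes called higher and rested on few cells. Camp, which codes for the antimicrobial peptide cathelicidin, had 916 and 1621 UMIs in the fusion members against 51 in wild type, of which 674, 610 and 4 came from 1 cell. Its log2 fold change was 3.71 ± 0.29 (edgeR adjusted p = 1.78e-07), and without doublets it was 0.56 (adjusted p = 0.454). Ltf, Chil3, Ngp, Mmp8, Lcn2, Cybb and Pglyrp1 were called too. Without doublets none of the 8 was called, and without other-lineage cells only Mmp8 was (1.05, edgeR adjusted p = 0.0416). The Mmp8 change itself was 2.10 ± 1.02 without doublets (edgeR adjusted p = 0.558) beside 2.52 ± 0.29 among all members, and 13 of 14 alternatives called it. Members with at least 10 UMIs of Camp and Ltf numbered 3 of 140 and 9 of 160 in fusion, of which 3 and 8 were predicted doublets, and 0 of 75 in wild type.

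Single cells also carried the lymphoid and antigen presentation genes on the lower side. Dntt, the template-free polymerase of lymphoid progenitors, had 0 and 11 UMIs in fusion members against 75 in wild type, of which 73 came from 1 cell (edgeR adjusted p = 1.62e-05). Of the 65 Cd74 UMIs and the 29 H2-Aa UMIs of wild type, all came from 1 cell. The neutrophil gene Retnlg was lower, at 187 and 206 CPM in fusion against 478 CPM in wild type (−1.28 ± 0.20, edgeR adjusted p = 0.00225), but its change was 0.12 without doublets (adjusted p = 0.985) and −2.27 without other-lineage cells (adjusted p = 4.69e-17). The eosinophil granule gene Prg2 had 1 and 1110 UMIs in fusion members against 0 in wild type, of which 1107 came from a single cell of fusion 2 that was not a predicted doublet; it was not called among all members.

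Apoe did not pass the test in the early progenitors. It stood at 1135 and 1043 CPM in fusion against 975 CPM in wild type (0.16 ± 0.23, edgeR adjusted p = 0.95), with a median of 13 and 14 UMIs per fusion member and 14 per wild-type member. A UMI was seen in 97.9% and 95.6% of fusion members against 92.0% of wild-type members, and in 8.75% and 7.35% of fusion T cells against 5.52% of wild-type T cells. In granulocyte-monocyte progenitors (Kit with at least 10 Mpo UMIs and no Gata1) Apoe stood at 93.9 and 85.3 CPM against 21.3 CPM, a change of 2.07 ± 0.15 (edgeR adjusted p = 0.0295). The difference between the changes, early minus granulocyte-monocyte, was −1.90 ± 0.11 (edgeR adjusted p = 1.01e-18 with library as a block). Of 11645 genes, 1.05% differed in this way, while 0.0417% of genes were called in the granulocyte-monocyte progenitors themselves. Without the block edgeR called 0 genes in this comparison, Apoe included, while 527 had an unadjusted p under 0.05.

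Stem and multipotent cells, gated by Kit, Cd34 and Meis1 without lineage genes, numbered only 19 and 19 in fusion and 10 in wild type. They held 62 and 141 Apoe UMIs in fusion, or 414 and 725 plain CPM, against 0 in wild type. Against a floor of 3 counts in the wild-type library, 36.3 plain CPM, fusion was at least 11.4-fold and 19.98-fold higher. The change in early progenitors differed from it (edgeR adjusted p = 3.43e-16), as 0.155% of 9046 genes did, and 0.488% of genes were called within the stem gate. In Kit+ committed erythroid cells Apoe stood at 331 and 335 CPM against 364 CPM, and the difference to the early progenitors did not pass the test (0.26 ± 0.14, edgeR adjusted p = 0.754).

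Against committed erythroid cells, the fold change differed in 68 of 12429 genes (0.547%) when library was a block, and 0.428% of genes were called in committed cells themselves. Mt1 (−1.01 ± 0.16, edgeR adjusted p = 1.47e-07), Mt2 (−1.04 ± 0.23, adjusted p = 0.00244), Cd24a (−1.10 ± 0.18, adjusted p = 1.38e-06), Ermap (−0.97 ± 0.18, adjusted p = 4.05e-05) and Slc25a21 (−1.31 ± 0.28, adjusted p = 0.000886) had a more negative change in early progenitors. In committed cells Ermap stood at 351 and 315 CPM in fusion against 363 CPM in wild type, and Cd24a at 203 and 208 CPM against 321 CPM. Trib2 stood at 38.7 and 51.4 CPM there against 82.6 CPM, not above its values in early progenitors. Nrgn rose in committed cells, where it stood at 102 and 104.7 CPM in fusion against 33.0 CPM in wild type (1.64 ± 0.14, edgeR adjusted p = 0.0103; difference −0.71 ± 0.19, adjusted p = 0.0264). The differences for Psd3, Arhgap6, H1fx, Fosb and Trib2 did not pass the test. Without the block only 1 gene, Camp, was called in this comparison, so the differences named here rest on the block.

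**Figure D5:**
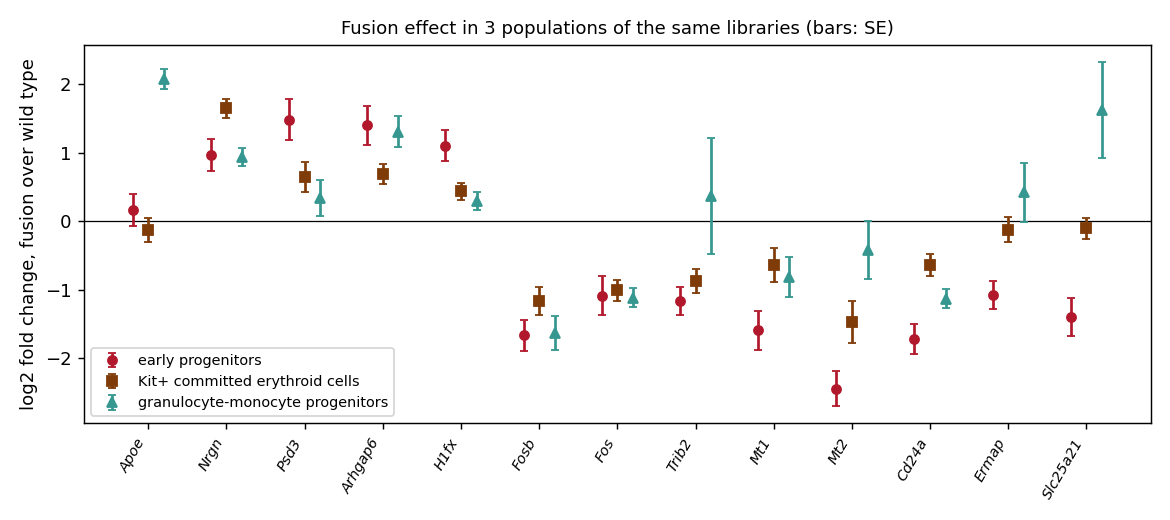
Log2 fold change, fusion over wild type, with SE bars (y axis) for 13 genes (x axis) in early progenitors (circles), Kit+ committed erythroid cells (squares) and granulocyte-monocyte progenitors (triangles). Apoe is at 0.16 in early progenitors and 2.07 in granulocyte-monocyte progenitors, and Ermap is at −1.08 in early progenitors and −0.13 in committed cells.

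The genes joined in the fusion did not pass the test in these cells. Ep300 (chromosome 15, 81585351 to 81652077) stood at 63.0 and 55.5 CPM in fusion against 57.0 CPM in wild type (0.05 ± 0.22, edgeR adjusted p = 0.985). Zfp384 (chromosome 6, 125009145 to 125037870), the mouse Znf384 gene, stood at 29.3 and 19.6 CPM against 17.5 CPM (0.46 ± 0.39, adjusted p = 0.906). Counts near the 3′ end cannot assign a UMI to the fusion or the normal transcript. Of 182 genes tested within 10 Mb of Ep300, 0 were called, beside 0.359% of all genes.

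In the promoters of the called genes, GATAA, the core of the GATA factor motif, was counted on both strands. A match was present in 4 of 10 promoters of higher genes (Chil3, Cybb, Ltf and Pglyrp1) and in 7 of 14 of lower genes, Ermap, Nfia and Serpina3g among them. Of all promoters 25.8% and of those of tested genes 15.8% held one. The 4 higher genes counted with a match rested on few cells and were not called without doublets. Arhgap6 was not counted as holding a match, but 1 of its other promoter windows (chrX:169112628-169112927) held 1. The metal response core shown for Mt1 and Mt2 was present in 0 of 10 and 5 of 14, beside 36.9% of promoters of tested genes. A match is a description only.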

How the data were processed

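Raw UMI counts per gene and cell were deposited by the authors. Per the submitters' processing notes the tools were Cell Ranger 5.0.1 and bcl2fastq 2.20.0.422 and the build was GRCm38, while the file headers name Cell Ranger 5.0.0. Totals were 97192347 and 111836603 UMIs in fusion 1 and fusion 2 and 93262028 in wild type. Replicates were numbered in accession order.

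The deposited counts were filtered and gated as described, and doublets predicted per library with scrublet in scanpy 1.11.5 (expected rate 0.06). UMIs were summed per library and tested with edgeR 4.0.16 (filterByExpr, TMM, quasi-likelihood, genotype as the only term), with p-values adjusted over all genes tested. The SE was the log2 fold change divided by the square root of F. Differences between populations were population by genotype terms with library as a block, which also leaves 1 residual degree of freedom. Plain CPM uses summed UMIs unscaled. On simulated counts for the early progenitor comparison the test recovered 42 of 100 genes changed 2-fold and 93 of 100 changed 4-fold. There were 5 false calls among 9691 genes. For the difference between early and committed cells it recovered 12 of 100 changed 2-fold and 84 of 100 changed 4-fold. False calls there numbered 3 among 12379 genes. The simulated counts had 1 common dispersion for every gene and for both populations, and no library effect beyond library size. The rates therefore do not cover genes that differ in spread or a wild-type library that differs for technical reasons. Whether they hold for genes whose UMIs came from a few cells was not tested.

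Named genes were called, had a mean of at least 20 CPM and both fusion libraries on one side, the first 12 per direction by size, plus gate genes, Apoe, Ep300, Zfp384 and up to 4 members per list; Mospd3, H2-Aa, Hist1h2ap, Hist1h3c, Rhd, Add2, Klf1, Tfrc and the leading and marker genes of the gated cells fall outside it and were chosen after their values were seen. The members and lists were chosen with earlier results of these data known. Alternatives were DESeq2 1.42.0, limma 3.58.1 voom, other filters, gates and denominators, equal cells and thinning to 5000 UMIs. Positions come from GENCODE M21 and promoters from RefSeq, matched by symbol for 7814 of 9753 tested genes. Results of 1 called gene are not reported here.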

Additional observations from a re-analysis of the deposited data

Results flagged for a closer look

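These results were listed because the fusion effect in early progenitors differed from that in another population of the same libraries, by an edgeR quasi-likelihood interaction test with library as a block and an adjusted p under 0.05. Values are the log2 change, fusion over wild type, in early progenitors minus that in the other population. The populations share their libraries, and without the block 1, 2 and 0 genes were called against committed erythroid cells, stem and multipotent cells, and granulocyte-monocyte progenitors.

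Against Kit+ committed erythroid cells, genes of erythroid cells and metal binding had a more negative change: Mt1 by −1.01, Mt2 by −1.04, Cd24a by −1.10, Ermap by −0.97, Slc25a21 by −1.31, and Nrgn differed by −0.71. Genes resting on single or few cells differed too, Dntt by −3.15, Cd74 by −1.48 and Prg2 by 14.57, the last a fitted value that depends on the prior count. The neutrophil and phagocyte genes gave 4.20 for Ltf, 3.42 for Camp, 3.49 for Chil3, 3.35 for Ngp, 2.53 for Lcn2, 2.09 for Cybb, 1.25 for Pglyrp1, 1.10 for Mmp8 and 2.40 for Ltb4r1.

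Against stem and multipotent cells, 48 cells in all, Camp differed by 3.85 and Apoe by −11.91, a fitted value with 0 Apoe UMIs in the wild-type stem cells and therefore no bound.

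Against granulocyte-monocyte progenitors, Apoe differed by −1.90. The metallothionein genes differed by −0.79 for Mt1 and −2.02 for Mt2, and erythroid and related genes by −1.46 for Ermap, −1.93 for Gfi1b, −0.79 for Cpox, −2.46 for Nfia and −2.97 for Slc25a21. Mospd3, which codes for a sperm-protein-domain membrane protein, differed by −0.81, Serpina3g by −1.67 and Nkg7 by 1.23. Neutrophil and phagocyte genes gave 4.19 for Ltf, 3.73 for Camp, 3.62 for Chil3, 3.77 for Ngp, 2.64 for Lcn2, 2.67 for Cybb, 1.15 for Pglyrp1, 2.08 for Ltb4r1 and −1.05 for Retnlg. Dntt differed by −3.66 and Prg2 by 12.27.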

How the results depend on the processing

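The 35 called genes became 89 without the gene filter, 4 by DESeq2's Wald test, 16 with equal cells per library, 18 with cells thinned before the gate, 90 without doublets, 9 with at least 2 UMIs of Gata1 and of Gata2, 85 with at most 2 Mpo UMIs, 72 without members carrying other lineages' markers, and 3 (Mt2, Mmp8 and Camp) with at least 2000 UMIs and at most 5% mitochondrial UMIs, which left 132, 157 and 74 members. Other settings gave 32 to 43. The share ratio was 1.75 with 2 Gata1 and Gata2 UMIs, 1.73 among Kit cells, 2.47 among Kit cells outside the committed gate and 0.929 among early and committed cells together; leaving out a fusion replicate gave 1.89 to 2.26. For the differences between populations, dropping the replicate block left 1, 2 and 0 of 68, 14 and 122 calls (committed, stem, granulocyte-monocyte), no gene filter gave 9 against stem and 14 against granulocyte-monocyte cells, and DESeq2 size factors gave 62 against granulocyte-monocyte progenitors. Without other-lineage cells, changes called in either fit that turned sign were Ngp (−0.26), Lcn2 (−0.19), Cybb (−0.78), Pglyrp1 (−0.18), Lyz2 (−0.83) and Cd74 (6.17); among genes called in neither, Ly6c2 (−1.08) and Cebpe (−0.036) turned too. Retnlg turned to 2.73 with thinned cells, 0.12 without doublets and 0.061 with 2 Gata1 and Gata2 UMIs, and Hist1h3c to 0.071 with thinned cells. The cause was not tested. Over the 35 called genes, 9 of 546 gene and setting pairs reversed direction, where the pairs include untested values without a fusion library. The alternatives that called a gene ran from 2 of 14 for Pglyrp1 to 13 of 13 for Mt2. Leaving out a fusion library leaves no residual degree of freedom, so those values are changes with no test. No paired analysis was possible because the labels give no replicate numbers. With 75 wild-type members, genes of a few CPM rest on a few UMIs.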
